A study of Mus musculus with 38 samples.

Results

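The level of 10 genes of the brain's outer covering was followed through 38 RNA sequencing libraries of mouse medial prefrontal cortex. The genes were chosen by name as markers of the meninges, which may remain on dissected cortex in varying amount: Ogn, Dcn, Col1a1, Col1a2, Col3a1, Col6a2, Igf2 and Slc6a13 for meningeal fibroblasts, and Cd163 and Mrc1 for macrophages of the brain borders. The choice was made with earlier results of these data known. They are 10 of the 57010 gene IDs of the count table, and each matched 1 ID. Every library came from 1 mouse. Mutant mice had the genotype SSTCre:γ2f/f and control mice the genotype SSTCre, so that all animals carried Cre driven by the somatostatin promoter, and the mutants in addition both copies of the loxP-flanked (f) allele on which Cre acts. This promoter directs Cre to somatostatin neurons. Mice were exposed to chronic variable stress (CVS) for 21 days and killed 24 hours after the last stressor, or were left without stress (NS). Age and background strain are not in the labels used here. Males comprised 4 mutant CVS, 3 mutant NS, 6 control CVS and 5 control NS mice, and females 5 mice in each of these groups. The animal names of the sexes come from separate series, so levels were compared only within a sex.

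The meninges are sheets of connective tissue whose fibroblasts secrete collagens, proteoglycans and growth factors and carry transporters between brain and cerebrospinal fluid. Macrophages live among these fibroblasts and along the vessels that enter the cortex, and are distinguished from microglia by scavenger and mannose receptors. Fibroblasts and mural cells around vessels inside the cortex make some of the same transcripts, so the genes mark a tissue compartment rather than 1 cell type. In bulk tissue, fewer cells of a type and less RNA per cell cannot be told apart.

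Promoters of 8 of the 10 genes were found in a RefSeq table of GRCm38.p6, another build than the GRCm39 of the counts. Each spans 250 bases before to 50 after the transcription start. They were searched on both strands for CCAAT, the binding motif of NF-Y, for GGGCGG, a core of Sp1 sites, and for TATAAA, the TATA box. Of all 32851 promoters of this length in the table, 37.4% held CCAAT, 35.7% held GGGCGG and 13.6% held TATAAA. The promoters below belong to genes whose levels moved together across libraries (Ogn, Slc6a13 and Col1a2), to the fibroblast gene that moved with them least (Col6a2, the first start listed), and to the macrophage gene that differed most between groups (Cd163). Capitals mark the matches, read on either strand.
Ogn: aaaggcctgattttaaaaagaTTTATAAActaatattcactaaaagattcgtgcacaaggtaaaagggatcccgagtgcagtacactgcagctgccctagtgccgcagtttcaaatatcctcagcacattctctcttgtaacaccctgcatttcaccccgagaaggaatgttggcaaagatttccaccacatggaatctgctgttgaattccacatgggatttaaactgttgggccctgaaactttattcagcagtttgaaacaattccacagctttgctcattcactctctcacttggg
Slc6a13: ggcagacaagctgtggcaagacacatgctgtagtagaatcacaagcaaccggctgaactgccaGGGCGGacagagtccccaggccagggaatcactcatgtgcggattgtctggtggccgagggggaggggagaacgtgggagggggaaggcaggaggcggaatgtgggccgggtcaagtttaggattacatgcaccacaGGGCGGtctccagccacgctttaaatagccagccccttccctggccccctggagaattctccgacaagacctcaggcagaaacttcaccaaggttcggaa
Col1a2: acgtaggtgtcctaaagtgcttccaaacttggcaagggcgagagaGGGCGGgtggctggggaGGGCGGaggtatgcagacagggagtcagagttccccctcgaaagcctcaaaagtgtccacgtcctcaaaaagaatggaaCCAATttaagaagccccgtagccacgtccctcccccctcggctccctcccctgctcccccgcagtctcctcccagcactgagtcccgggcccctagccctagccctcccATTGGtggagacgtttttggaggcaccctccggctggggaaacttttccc
Col6a2: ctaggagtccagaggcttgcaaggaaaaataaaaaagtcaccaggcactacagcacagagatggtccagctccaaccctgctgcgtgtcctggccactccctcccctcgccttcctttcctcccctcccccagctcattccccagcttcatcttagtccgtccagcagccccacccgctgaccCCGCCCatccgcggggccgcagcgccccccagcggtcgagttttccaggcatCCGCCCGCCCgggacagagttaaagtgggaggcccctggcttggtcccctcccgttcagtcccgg
Cd163: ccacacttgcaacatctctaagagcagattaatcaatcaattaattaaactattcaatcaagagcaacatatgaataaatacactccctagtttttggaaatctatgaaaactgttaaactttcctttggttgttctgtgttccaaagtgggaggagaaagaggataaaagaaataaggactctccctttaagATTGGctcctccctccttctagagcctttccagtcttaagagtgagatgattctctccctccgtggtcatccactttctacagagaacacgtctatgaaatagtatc

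The Ogn promoter (chr13:49607765-49608064, plus strand) held 2 matches to TATAAA that overlap each other on opposite strands, at -229 and -227 from the start, and neither of the other motifs. Slc6a13 (chr6:121300038-121300337, plus strand) held GGGCGG at -187 and -50. Col1a2 (chr6:4505368-4505667, plus strand) held GGGCGG at -205 and -188 and CCAAT at -109 and, on the opposite strand, at the start itself. Col6a2 (chr10:76623355-76623654, minus strand) held 3 matches to GGGCGG, of which the ones at -15 and -11 overlap. Cd163 (chr6:124304401-124304700, plus strand) held 1 match to CCAAT at -57. Igf2 held no match to the 3 motifs, Col3a1 had TATAAA at -117, and Mrc1 had GGGCGG at -108 and CCAAT at -80. No motif was shared by all of the genes that moved together. A match is a description of the letters and not a site.

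Total counts ranged from 17.6 M to 27.5 M per library (mean 21.1 ± 2.28 M, SD, n = 38). Levels are given as raw counts or as CPM (counts per 1000000 counts of the library). For CPM, the library size was the total over tested genes, scaled by TMM normalization within each sex. All 10 genes passed the filter on low counts in both sexes. In the GENCODE vM21 annotation Ogn lies opposite Cenpp, and Igf2 overlaps Igf2os on the opposite strand and Gm49394 and Mir483 on its own. Slc6a13 lies opposite Gm24855, and Col1a2, Col3a1 and Mrc1 overlap Gm43921, Gm47302 and Mir511 on their own strand. Reads in these overlaps may be assigned to either gene or to none, and the strand setting of counting is not stated in the sources.

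Fibroblast transcripts as a whole varied more than 2-fold between animals of a sex. The summed CPM of the 8 fibroblast genes ran from 55.6 to 148 in the 18 male libraries and from 50.4 to 134 in the 20 female libraries, a 2.66-fold range in each. In males it averaged 95.9 ± 35.8 in mutant CVS (n = 4), 98.7 ± 10.4 in mutant NS (n = 3), 81.4 ± 21.5 in control CVS (n = 6) and 91.3 ± 15.4 CPM in control NS mice (n = 5, all SD). The male group of mutant CVS mice held both a very high and a low library, 148 CPM in replicate 1 and 68.3 in replicate 4. In females the average was 76.2 ± 13.5 in mutant CVS, 112 ± 18 in mutant NS, 81.6 ± 23.2 in control CVS and 83.4 ± 17.0 CPM in control NS mice (SD, n = 5 each). The 5 female mutant NS libraries lay between 93.8 and 134 CPM and the 5 female mutant CVS libraries between 54.2 and 90.3 CPM, without overlap. The lowest female libraries came from 3 groups: 54.2 CPM in mutant CVS replicate 2, 50.4 in control CVS replicate 1 and 54.4 in control NS replicate 4. The summed CPM of the 2 macrophage genes ran from 3.64 to 11.8 in males and from 3.05 to 11.2 in females.

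**Figure D1:**
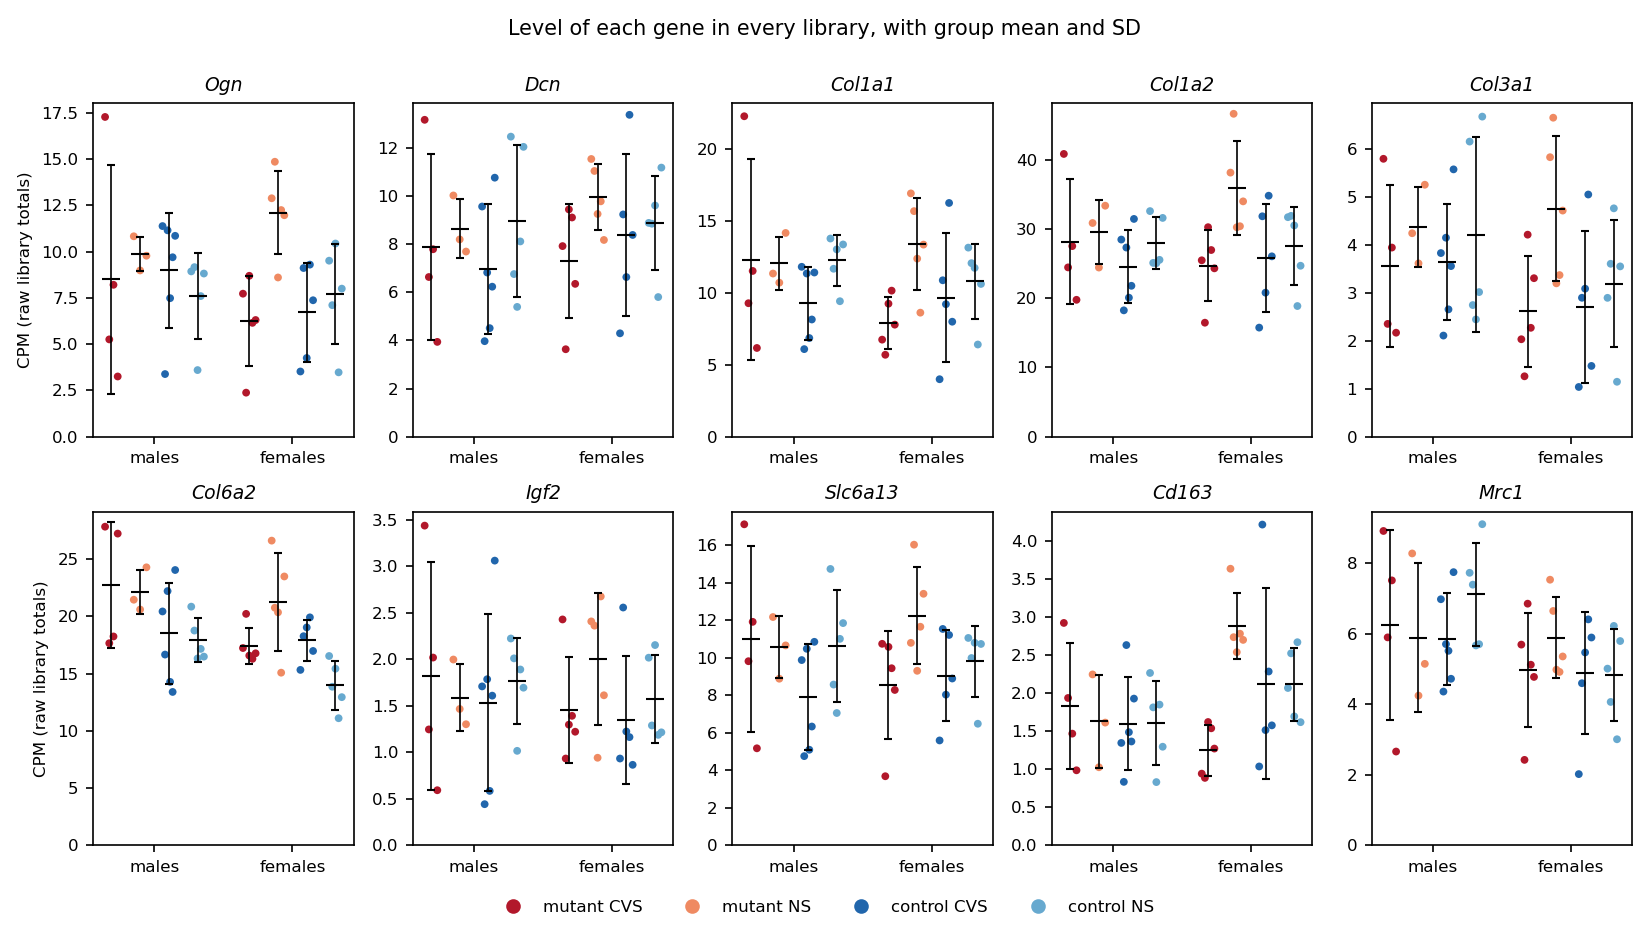
CPM of each gene (vertical axis, starting at 0) in every library, in males and females, with mutant CVS, mutant NS, control CVS and control NS from left to right; points are libraries and bars are the group mean and SD. In males the highest point of Ogn, 17.3 CPM, is mutant CVS replicate 1, and in females the mutant CVS and mutant NS points of Cd163 do not overlap. The CPM are scaled by TMM, although the axis label names raw library totals.

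Ogn encodes osteoglycin, a small leucine-rich proteoglycan of connective tissue. Its raw counts were 337, 114, 179 and 66 in male mutant CVS libraries, 217, 184 and 188 in male mutant NS libraries, from 69 to 259 (median 209.5) in male control CVS libraries and 209, 187, 78, 189 and 177 in male control NS libraries. The stressed male mutants thus held the lowest and the highest Ogn count of all males. In females the counts were 156, 51, 161, 168 and 124 in mutant CVS, 241, 277, 183, 229 and 297 in mutant NS, 68, 214, 73, 232 and 145 in control CVS and 184, 138, 228, 82 and 178 in control NS libraries. Each female group but mutant NS had at least 1 library with 82 counts or fewer. Dcn encodes decorin, which binds collagen fibrils, and had 80 to 292 counts in males and 78 to 334 in females.

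Col1a1 and Col1a2 encode the chains of type I collagen, and Col3a1 the chain of type III collagen, the fibrillar collagens of the meninges. Col1a1 had 434, 201, 251 and 125 counts in male mutant CVS libraries, 227, 219 and 272 in male mutant NS libraries, from 124 to 272 (median 197.5) in male control CVS libraries and 322, 238, 282, 234 and 268 in male control NS libraries. The highest and nearly the lowest male library were again mutant CVS replicates 1 and 4. Female Col1a1 counts were 136, 122, 171, 277 and 153 in mutant CVS, 316, 292, 263, 161 and 331 in mutant NS, 77, 255, 158, 405 and 157 in control CVS and 254, 234, 256, 151 and 236 in control NS libraries. Both extremes of the females, 77 and 405, fell in control CVS mice. Col1a2 had 372 to 796 counts in males and 304 to 869 in females, and Col3a1 had 43 to 144 and 20 to 126. Col6a2 encodes a chain of type VI collagen, which forms microfibrils around cells and vessels, and had 269 to 574 counts in males and 262 to 583 in females.

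Igf2, an imprinted growth factor that meninges and choroid plexus secrete, had 9 to 73 counts in males and 17 to 60 in females. Slc6a13, a transporter of GABA and taurine that in the mouse brain is known from the meninges, had 96 to 345 counts in males and 79 to 333 in females. Cd163 encodes the scavenger receptor for hemoglobin bound to haptoglobin. Its counts were 57, 42, 32 and 20 in male mutant CVS libraries, 45, 21 and 31 in male mutant NS libraries, from 17 to 59 (median 28) in male control CVS libraries and 53, 37, 18, 46 and 26 in male control NS libraries. All 4 male groups overlapped. Female counts were 19, 19, 30, 42 and 25 in mutant CVS, 68, 51, 54, 52 and 67 in mutant NS, 20, 99, 26, 57 and 31 in control CVS and 40, 49, 37, 63 and 36 in control NS libraries. Mrc1, the macrophage mannose receptor, had 54 to 185 counts in males and 39 to 160 in females.

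The 10 genes varied more between animals of a group than most genes did. The biological coefficient of variation (BCV, edgeR's estimate of the relative spread between libraries of a group beyond counting error) had a median over the 10 genes of 0.322 in males and 0.288 in females, where the median over all tested genes was 0.0931 and 0.0833. In each sex, 8 of the 10 genes lay above the 90th percentile of all tested genes. Igf2 was highest in males (0.473, percentile 99.3) and Col3a1 in females (0.445, percentile 99.6), with Ogn at 0.440 and 0.368. Col6a2 had the lowest BCV of the 10 in both sexes, 0.180 in males (percentile 75.1) and 0.121 in females (percentile 65.3). The within-group coefficient of variation of Ogn CPM was 42.2% in males, where counting error gives 8.19%, and that of Igf2 was 50.9%, where counting error gives 19.7%. BCV is higher for genes of low level, and among genes of like level the 10 genes lay between percentile 95.2 (Cd163) and 99.6 (Ogn) in males, and between 94.3 (Cd163) and 99.6 (Col1a2) in females.

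**Figure D2:**
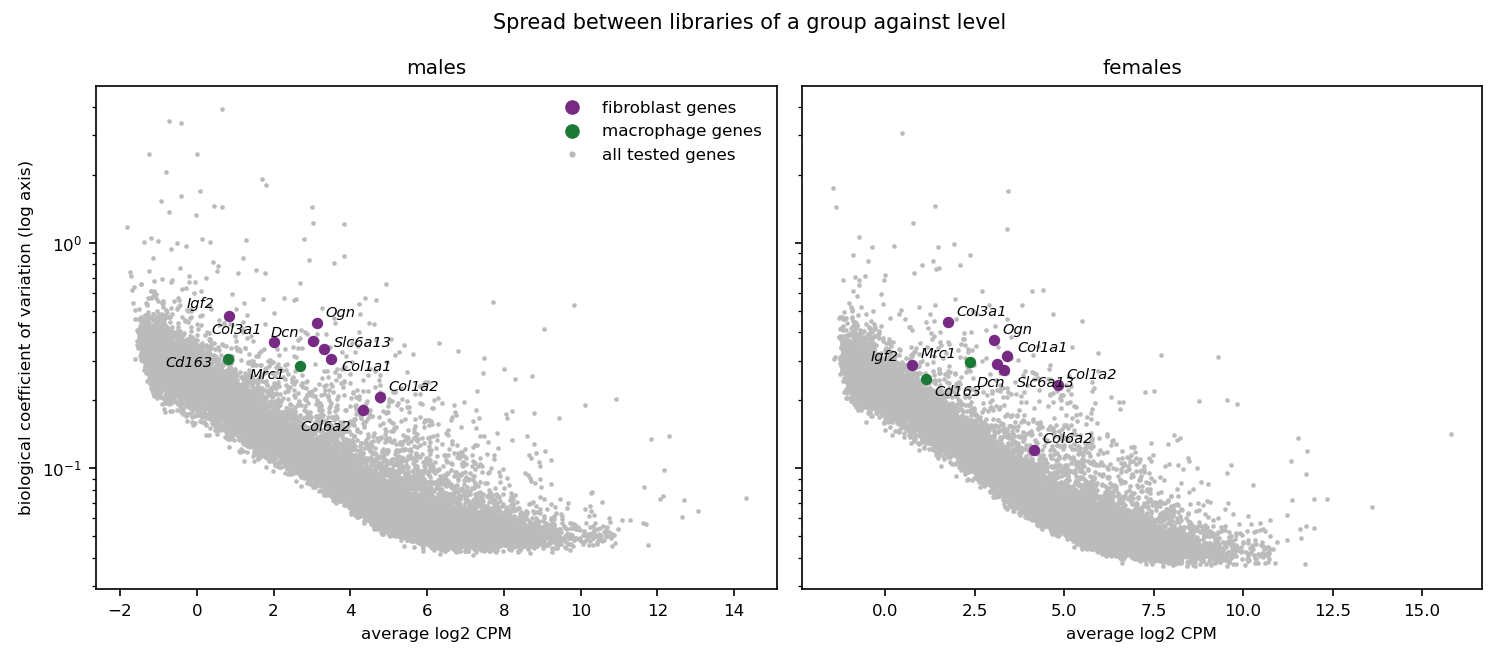
BCV (vertical log axis) against average log2 CPM (horizontal axis) of all tested genes in males (left) and females (right), grey points, with fibroblast genes in purple and macrophage genes in green. The marked genes sit along the upper edge of the cloud at their level, from 0.180 to 0.473 in males and from 0.121 to 0.445 in females.

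Within groups, the genes went up and down together from library to library. After removal of the group mean from log2 CPM, Pearson's r was tested for all 45 pairs by a two-sided permutation of libraries within groups, with Benjamini-Hochberg adjustment over the 45 pairs. In the 18 males 36 pairs passed, with a median r over all pairs of 0.782, and in the 20 females 24 pairs passed, with a median r of 0.593. By Spearman's rho 34 and 27 pairs passed. Pairs of other genes were not tested in this way, so no share over all pairs stands beside these counts. Among the fibroblast genes other than Col6a2, 21 of 21 pairs passed in males (median r 0.850) and 17 of 21 in females (median r 0.759). Without the 2 libraries farthest from the median of the first gene, these medians were 0.780 and 0.632.

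Col1a1 and Col1a2, whose chains assemble into 1 collagen molecule, had an r of 0.931 in males and 0.874 in females. Ogn and Slc6a13, a matrix proteoglycan and a transporter, had the highest r of the females, 0.934. Col6a2 moved least with the others: 0 of its 7 pairs with fibroblast genes passed in males (r 0.307 to 0.537, median 0.423) and 1 of 7 in females (with Col1a1, r 0.606), with a median r of 0.209 over the 7. Without the 2 libraries farthest from the median of the first gene, the median r of these pairs was 0.554 in males (highest 0.717) and 0.273 in females (highest 0.577), nearer to that of the other fibroblast pairs. By Spearman's rho the counts were likewise 0 and 1. Mrc1 had an r of 0.811 with Dcn in males (adjusted permutation p = 0.00051) and of 0.883 in females (adjusted permutation p = 0.00060). Cd163 and Mrc1 had an r of 0.645 with each other in males (adjusted permutation p = 0.0159) and of 0.314 in females (adjusted permutation p = 0.362). Of the 16 pairs of a fibroblast and a macrophage gene, 14 passed in males and 6 in females, and the 6 were all pairs with Mrc1. By Spearman's rho 12 passed in males and 8 in females. In females these included Cd163 with Col1a1 (rho 0.553) and with Col1a2 (rho 0.555), each with an adjusted permutation p of 0.0466. The difference between the sexes was not tested.

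**Figure D3:**
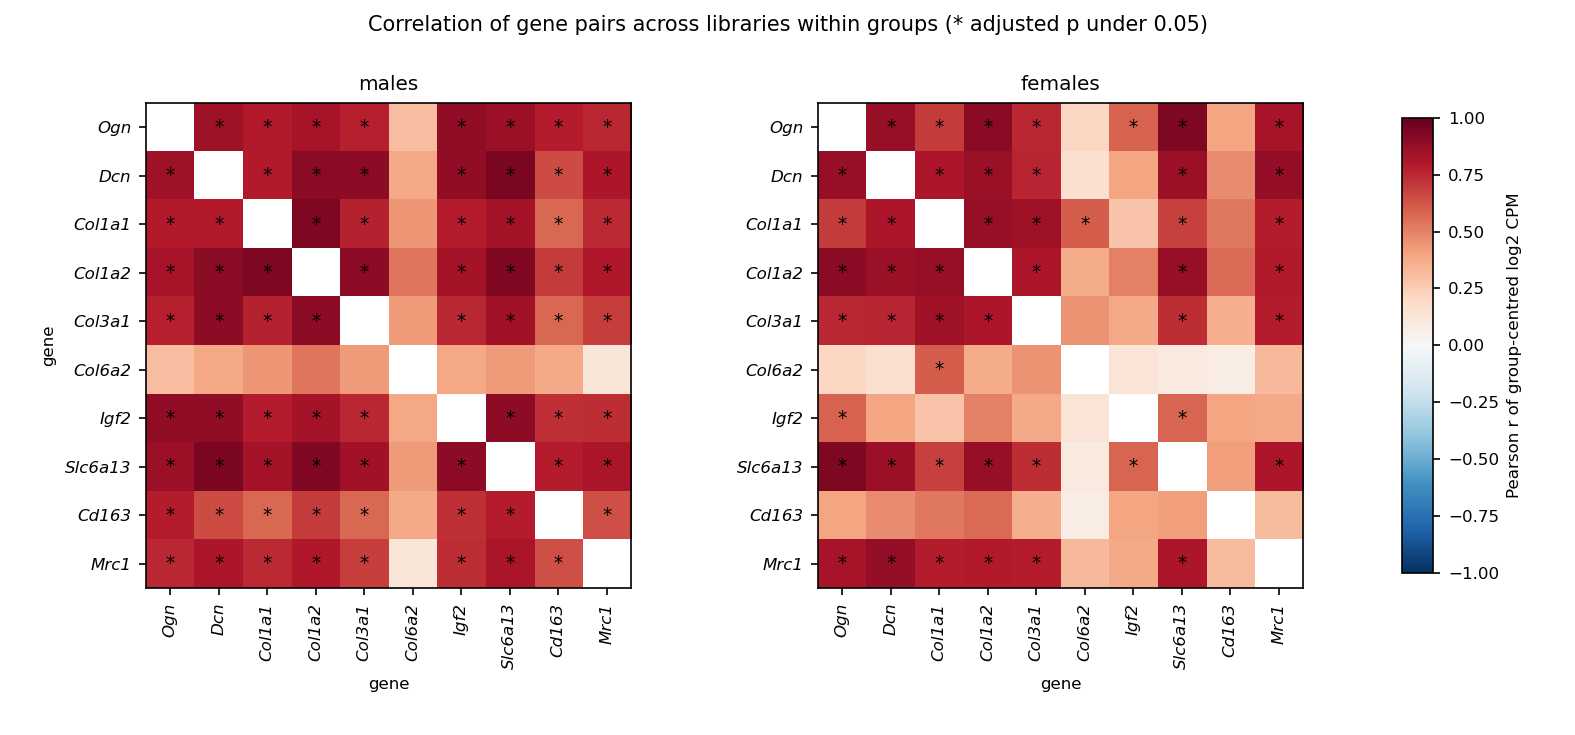
Pearson's r of group-centred log2 CPM for each pair of genes, in 18 male (left) and 20 female libraries (right); red is positive, blue negative, the diagonal is blank, and asterisks mark an adjusted permutation p under 0.05. The pale row and column belong to Col6a2, whose r with fibroblast genes did not exceed 0.606, and in females Cd163 is pale as well.

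The 10 genes were compared with marker genes outside the 10. The marker lists, like the 10 genes, were chosen with earlier results of these data known, so this is not an independent check of the label. For every gene tested in both sexes, r was taken with the mean of the group-centred, scaled levels of the 8 fibroblast genes. These values describe libraries that share dissection and depth, and are given without a test. Of 28 other meningeal fibroblast genes, 25 (89.3%) had an r above 0.5 in both sexes, where 277 of 16333 genes (1.70%) did, and their median r was 0.880 in males and 0.853 in females. Of 10 measured border macrophage genes other than Cd163 and Mrc1, 4 did so, with a median r of 0.502 and 0.437. Mural cell markers had medians of 0.395 and 0.400, endothelial markers 0.167 and 0.007, microglia markers 0.033 and 0.144, and markers of cortical excitatory neurons -0.311 and -0.270. Astrocyte markers had medians of 0.036 in males and 0.489 in females. Choroid plexus markers, of which only 3 of 11 passed the low-count filter in both sexes, had 0.481 and -0.071. Of the further lists, small leucine-rich proteoglycans had 0.858 and 0.642, transporters of GABA and taurine 0.399 and 0.473, collagen processing genes 0.431 and 0.467, the IGF axis 0.396 and 0.007, and other collagen chains 0.369 and 0.062. These lists are not separate from the 28 other meningeal fibroblast genes. The proteoglycans Bgn, Lum and Fmod, the collagen processing gene Pcolce and Igfbp2 of the IGF axis are on both.

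The genes most like the fibroblast pattern, by the mean r over the sexes among genes with a symbol outside the 10, were Aebp1 (0.959), Thbd (0.958), Islr (0.952), Fmod (0.950), Slc13a4 (0.945), Slc13a3 (0.932), Ptgds (0.931), Aldh1a2 (0.926), Apod (0.919) and Slc6a20a (0.915). Fmod encodes the proteoglycan fibromodulin, Aldh1a2 makes retinoic acid, Ptgds makes prostaglandin D, and Slc13a3 and Slc13a4 carry dicarboxylates and sulfate. The genes most like Cd163 and Mrc1 were Aebp1 (0.892), Bmp7 (0.889), Slc13a3 (0.884), Itih2 (0.874), Cp (0.870), Slc13a4 (0.869), Serping1 (0.868), Apod (0.864), Slc22a6 (0.863) and Fmod (0.859). None of these 10 is on the border macrophage list, and 5 are on the list of other meningeal fibroblast genes. With the pattern of the 2 macrophage genes, other border macrophage genes had a median r of 0.312 in males and 0.406 in females, and other meningeal fibroblast genes one of 0.80 and 0.760.

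**Figure D4:**
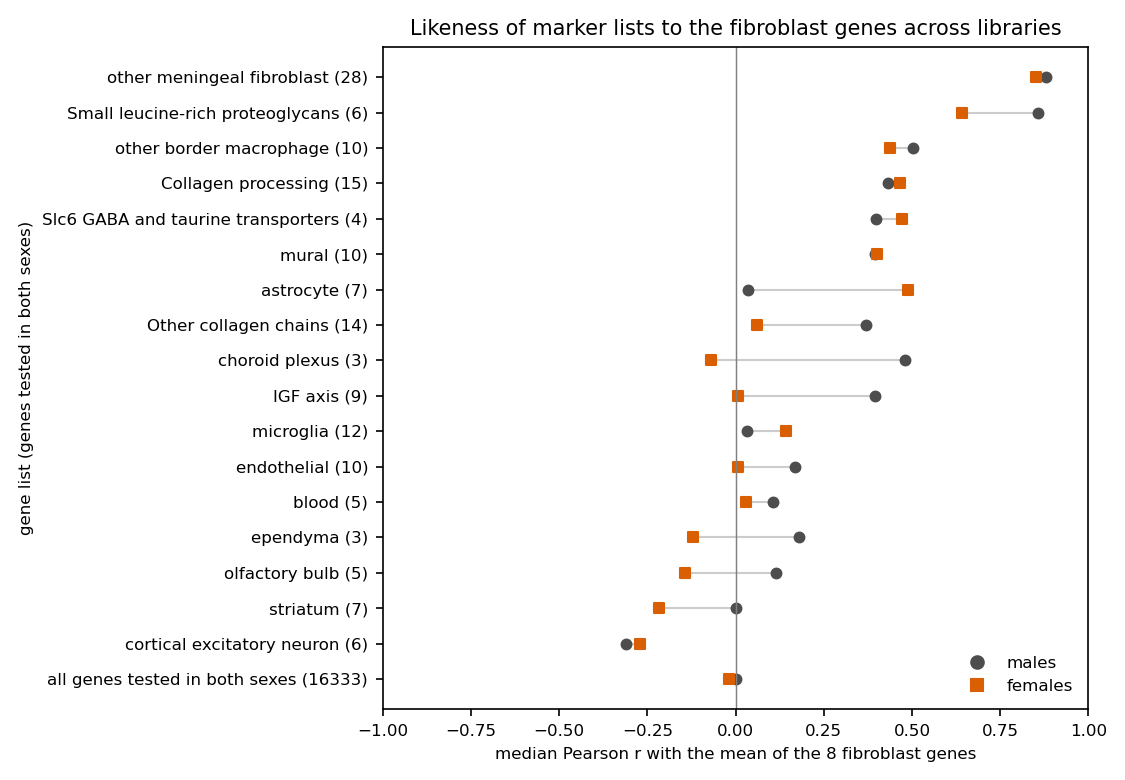
Median Pearson r (horizontal axis) between the genes of each marker list and the mean of the 8 fibroblast genes, in males (circles) and females (squares); the number of genes is in brackets. Other meningeal fibroblast genes lie at the right with 0.880 and 0.853, and the 16333 genes tested in both sexes lie close to 0, at -0.018 in females.

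The effect of the mutant genotype without stress was asked by comparing mutant NS with control NS mice. Here and in each comparison below, most of the 10 genes and the other meningeal fibroblast genes varied together across libraries. Counts of such genes above or below 0 are therefore not counts of independent observations. In females all 10 genes had a higher mean in mutants on the fitted log2 scale, and 1 of the 10 passed the threshold, where 21 of 16435 tested genes did (0.128%). This gene was Col6a2, the type VI collagen chain. It had 26.6, 20.8, 20.4, 15.1 and 23.5 CPM in mutant NS libraries, against 16.5, 13.8, 15.4, 11.1 and 12.9 CPM in control NS libraries. All 5 mutants were above the control mean, and the groups overlapped through mutant replicate 4. The log2 fold change was 0.61 ± 0.118 (SE), a fold of 1.53, with an adjusted p of 0.0322 in the edgeR quasi-likelihood test (Benjamini-Hochberg).

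The Col6a2 call was not kept in every fit. Without 1 library, the log2 fold change stayed between 0.52 and 0.71, and the call was lost in 10 of 20 such fits. The edgeR adjusted p was 0.113, 0.0764, 0.0649 and 0.0906 without control NS replicates 2, 3, 4 and 5, and 0.0517 without control CVS replicate 2. It was 0.0527, 0.0581, 0.0947 and 0.140 without mutant NS replicates 1, 2, 3 and 5, and 0.0553 without mutant CVS replicate 1. With all 8 groups in 1 fit the adjusted p was 0.154 and with the 2 groups alone 0.157, at a log2 fold change of 0.61 each. DESeq2 (adjusted p = 3.37e-04) and limma voom (adjusted p = 0.0419) called the gene as well. Over all alternatives that kept every library the adjusted p ranged from 7.39e-10 to 0.157.

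The other 9 genes did not pass in this comparison, with log2 fold changes from 0.16 to 0.65. At an unadjusted p under 0.05 Col6a2 was likewise the 1 gene of 10, where 8.07% of all tested genes were. The median of the 10 was 0.36, where 50.7% of all tested genes were above 0 and the median of all was 0.00. Ogn averaged 12.1 ± 2.26 CPM in mutant NS and 7.70 ± 2.7 CPM in control NS libraries (SD, n = 5 each), a log2 fold change of 0.65 ± 0.325 with an edgeR adjusted p of 0.637. Col1a1 averaged 13.4 ± 3.21 CPM in mutant NS and 10.8 ± 2.61 CPM in control NS libraries (0.32 ± 0.285, edgeR adjusted p = 0.851), and without control NS replicate 4 its log2 fold change was 0.17. Cd163 averaged 2.88 ± 0.433 CPM in mutant NS and 2.11 ± 0.474 CPM in control NS libraries (0.44 ± 0.252, edgeR adjusted p = 0.708). The 95% interval of Cd163 ran from -0.05 to 0.94, which includes 0.

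Of 28 other meningeal fibroblast genes, 26 were above 0 and 0 passed, with a median of 0.23. The 4 with the smallest unadjusted p were Bmp5, a bone morphogenetic protein (0.78 ± 0.256), Efemp1, a fibulin (0.41 ± 0.146), Ccn3, a matricellular protein (0.18 ± 0.064), and Slc47a1, an organic cation exporter (0.75 ± 0.326). Among 15 collagen processing genes 11 were above 0 and 0 passed, led by Adamts2, the procollagen peptidase (0.46 ± 0.114, edgeR adjusted p = 0.105). Among 14 other collagen chains 11 were above 0 and 0 passed, led by Col5a1 (0.50 ± 0.129, edgeR adjusted p = 0.127), and Col6a1, the partner chain of Col6a2, stood at 0.28 ± 0.156. Of 10 border macrophage genes 6 were above 0 (median 0.02), and the 4 with the smallest unadjusted p were Colec12 (0.35 ± 0.149), Lyve1 (0.62 ± 0.304), Siglec1 (-0.40 ± 0.372) and Ms4a6c (0.34 ± 0.348). None of the markers of other cells passed. Blood genes were above 0 in 5 of 5 (median 0.15, summed level 35.2 to 119 CPM in mutant NS and 35.4 to 85.3 CPM in control NS libraries). Olfactory bulb genes were above 0 in 3 of 5 (median 0.17, with Cdhr1 at 0.69 ± 0.205), and the summed level of all 7 was 15.4 to 18.8 CPM in mutant NS and 13.5 to 19.9 CPM in control NS libraries. On the other side of 0 lay 9 of 10 endothelial, 10 of 12 microglial and 7 of 7 astrocyte genes and 7 of 10 mural genes, and the part of all of these markers in the result was not tested. The summed level of the 10 endothelial genes was 138 to 158 CPM in mutant NS and 153 to 212 CPM in control NS libraries, that of the 12 microglial genes 422 to 478 and 452 to 495 CPM, and that of the 7 astrocyte genes 4211 to 4661 and 4513 to 5044 CPM.

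Chronic stress in female mutants was compared as mutant CVS with mutant NS mice. These NS libraries also served the comparison above, so a high level in them raises 1 result and lowers the other. All 10 genes had a negative log2 fold change, with a median of -0.53 and a range from -1.19 to -0.24, where 49.7% of all tested genes were below 0. Because most of these genes varied together, the 10 signs are not independent. None of the 10 passed by edgeR, DESeq2 or limma voom, and 0 of 16435 genes did by edgeR (0%). At an unadjusted p under 0.05, 5 of the 10 genes were lower in stressed mutants, where 7.91% of all tested genes differed either way.

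Cd163 had the largest difference. It had 0.941, 0.885, 1.62, 1.54 and 1.27 CPM in mutant CVS libraries, against 3.64, 2.74, 2.54, 2.78 and 2.7 CPM in mutant NS libraries. Every stressed mutant lay below every unstressed one. The log2 fold change was -1.19 ± 0.268 with an adjusted p of 0.203 in the edgeR quasi-likelihood test (Benjamini-Hochberg). Without control CVS replicate 2, whose 4.22 CPM is the highest Cd163 value of all females, the edgeR adjusted p was 0.0401 at the same log2 fold change of -1.19. With the 2 groups alone it was 0.0244, and with no low-count filter 3.88e-04, and over the alternatives that kept every library it ranged from 3.88e-04 to 0.434. Calls rose over all genes as well. The main fit called 0 genes, the fit without control CVS replicate 2 called 2, the 2 groups alone 5 and the unfiltered fit 36. Mrc1, the other macrophage gene, had 5.70, 2.42, 6.86, 5.12 and 4.78 CPM in mutant CVS libraries, against 7.54, 6.65, 4.98, 4.92 and 5.36 CPM in mutant NS libraries (-0.24 ± 0.277). The groups of Mrc1 overlapped.

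Among the proteoglycans, Ogn had 7.73, 2.38, 8.69, 6.15 and 6.3 CPM in mutant CVS libraries, against 12.9, 14.9, 8.60, 12.2 and 12 CPM in mutant NS libraries. All stressed mutants were below the unstressed mean, and the groups overlapped only through mutant CVS replicate 3 and mutant NS replicate 3. The log2 fold change was -0.96 ± 0.332 with an edgeR adjusted p of 0.481. Dcn had 7.92, 3.63, 9.45, 9.11 and 6.35 CPM in mutant CVS libraries, against 11.5, 11, 9.26, 9.79 and 8.18 CPM in mutant NS libraries (-0.44 ± 0.272, edgeR adjusted p = 0.732). Its groups overlapped.

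Among the fibrillar collagens, Col1a1 had 6.74, 5.68, 9.23, 10.1 and 7.78 CPM in mutant CVS libraries, against 16.9, 15.7, 12.4, 8.61 and 13.3 CPM in mutant NS libraries (-0.75 ± 0.293, edgeR adjusted p = 0.537). Mutant NS replicate 4 was the only unstressed library within the stressed range. Col1a2 had 25.5, 16.4, 30.2, 26.9 and 24.3 CPM in mutant CVS libraries, against 38.1, 46.6, 30.2, 30.4 and 34.0 CPM in mutant NS libraries (-0.54 ± 0.214, edgeR adjusted p = 0.540). Col3a1 had 2.03, 1.26, 4.21, 2.27 and 3.30 CPM in mutant CVS libraries, against 5.83, 6.65, 3.20, 3.37 and 4.71 CPM in mutant NS libraries (-0.87 ± 0.413, edgeR adjusted p = 0.630). For all 3 chains the groups touched or overlapped at their edges, and all 5 stressed mutants were below the unstressed mean.

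Col6a2 had 17.2, 20.2, 16.6, 16.3 and 16.8 CPM in mutant CVS libraries, against 26.6, 20.8, 20.4, 15.1 and 23.5 CPM in mutant NS libraries (-0.29 ± 0.116, edgeR adjusted p = 0.533). Slc6a13, the transporter, had 10.7, 3.68, 10.6, 9.44 and 8.28 CPM in mutant CVS libraries, against 10.8, 16.0, 9.31, 11.7 and 13.4 CPM in mutant NS libraries (-0.52 ± 0.251, edgeR adjusted p = 0.639). Igf2, the growth factor, had 2.43, 0.932, 1.30, 1.39 and 1.22 CPM in mutant CVS libraries, against 2.41, 2.36, 0.940, 2.67 and 1.61 CPM in mutant NS libraries (-0.45 ± 0.299, edgeR adjusted p = 0.749). The groups overlapped for these 3 genes, and mutant CVS replicate 2 was the lowest stressed library of the other 9 genes but the highest of Col6a2. Without it the log2 fold change was -0.33 for Slc6a13 and -0.27 for Dcn, and without mutant CVS replicate 1 it was -0.71 for Igf2.

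Of 28 other meningeal fibroblast genes, 27 were below 0 in stressed female mutants and 0 passed, with a median of -0.40. Slc47a1 stood at -1.42 ± 0.342, Efemp1 at -0.59 ± 0.147, Bmp5 at -0.76 ± 0.255 and Bmp7 at -0.38 ± 0.136. Their summed level was 581 to 1239 CPM in mutant CVS and 939 to 1530 CPM in mutant NS libraries, and 0 of the 28 were at 0 counts in every library. Small leucine-rich proteoglycans, some of them among these 28 genes, were below 0 in 5 of 6 measured members. Fmod stood at -0.73 ± 0.318, and Kera had 0 counts in every library. Lox, which cross-links collagen, stood at -1.71 ± 0.407 (edgeR adjusted p = 0.203) among 15 collagen processing genes of which 8 were below 0. Other collagen chains were below 0 in 10 of 14, with Col8a2 at -1.31 ± 0.344. Border macrophage genes were below 0 in 6 of 10 (median -0.24), with Colec12 at -0.40 ± 0.149 and Lyve1 at -0.37 ± 0.297. Of the IGF axis 3 of 10 genes were below 0, and of the Slc6 transporters of GABA and taurine 1 of 4, Slc6a12 (-0.48 ± 0.417). Endothelial genes were below 0 in 3 of 10, mural genes in 4 of 10, microglial genes in 3 of 12 and astrocyte genes in 3 of 7. Blood genes were above 0 in 5 of 5 (median 0.62, summed level 58.0 to 182 CPM in mutant CVS and 35.2 to 119 CPM in mutant NS libraries), and their part in the result was not tested.

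In female controls, CVS against NS gave log2 fold changes from -0.21 to 0.36 (median -0.09), 7 of 10 below 0 where 50% of all tested genes were. None passed by edgeR, DESeq2 or limma voom (0 of 16435 genes by edgeR, 0%), and 1 had an unadjusted p under 0.05, where 8.72% of all tested genes had. That gene was Col6a2, with 15.3, 18.3, 19, 19.9 and 17.0 CPM in control CVS libraries, against 16.5, 13.8, 15.4, 11.1 and 12.9 CPM in control NS libraries (0.36 ± 0.119, edgeR adjusted p = 0.396). All 5 stressed controls were above the unstressed mean, and the groups overlapped. Cd163 stood at 0.04 ± 0.257 here, and its sign was not kept: it was -0.38 without control CVS replicate 2, -0.04 and -0.05 without control NS replicates 3 and 5, and -0.07 by limma voom with every library.

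Between genotypes under CVS in females, 8 of 10 genes were below 0 (median -0.09), where 50.1% of all tested genes were, and 0 passed by edgeR, DESeq2 or limma voom, where 4 of 16435 genes did by edgeR (0.0243%). Cd163 was the 1 gene with an unadjusted p under 0.05, as 7.08% of all genes had, at -0.79 ± 0.273 (edgeR adjusted p = 0.571), with all 5 mutant CVS libraries below the control CVS mean of 2.12 ± 1.25 CPM. That mean holds the 4.22 CPM of control CVS replicate 2, and without this library the log2 fold change was -0.37. Col6a2 stood at -0.04 ± 0.117. The interaction, which asks whether stress acted differently in mutants and controls, was negative for all 10 genes in females (median -0.54), where 49.6% of all tested genes were, and none passed by edgeR, DESeq2 or limma voom (0 of 16435 genes by edgeR, 0%). Unadjusted p values under 0.05 were found for 2 of the 10, where 4% of all tested genes had one: Col6a2 (-0.65 ± 0.167) and Cd163 (-1.23 ± 0.372), each with an edgeR adjusted p of 0.9999. Without control CVS replicate 2 the Cd163 interaction was -0.81.

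**Figure D5:**
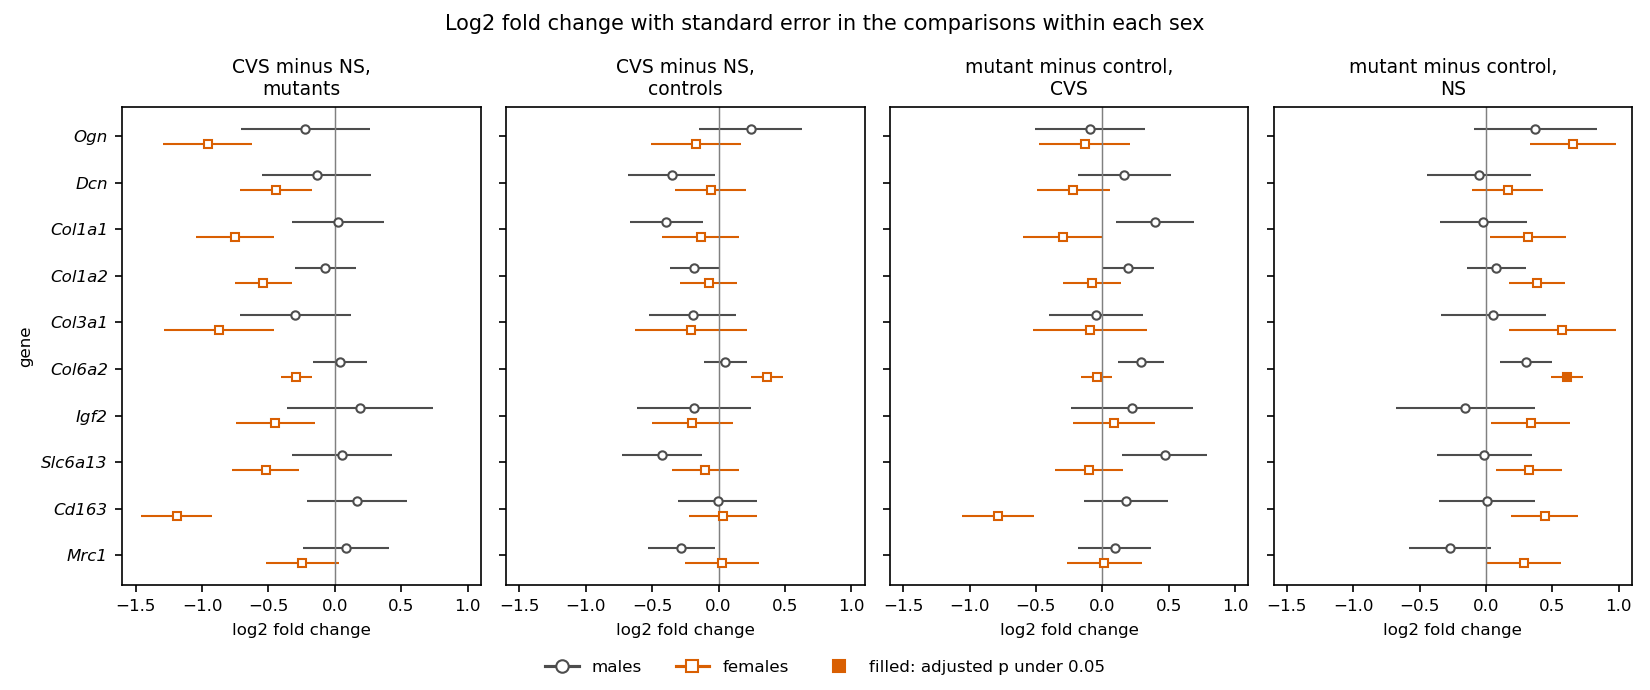
Log2 fold change (horizontal axis) with its SE for each gene in males (circles) and females (squares), for CVS minus NS in mutants, CVS minus NS in controls, mutant minus control under CVS and mutant minus control without stress; a filled marker has an edgeR adjusted p under 0.05. The single filled marker is Col6a2 in female mutants without stress, and all 10 female markers of stress in mutants lie left of 0.

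In males, none of the 10 genes passed in any of the 4 two-group comparisons or in the interaction by edgeR, DESeq2 or limma voom, and none had an unadjusted p under 0.05 in them. Of 17212 genes edgeR called 0% for stress in mutants, 0.0116% for stress in controls, 0.0523% for genotype under CVS, 0.0174% for genotype without stress and 0% for the interaction. At an unadjusted p under 0.05, edgeR found 3.38%, 7.39%, 7.62%, 6.13% and 4.18% of all genes in these comparisons, in the same order. For stress in male mutants 6 of 10 log2 fold changes were above 0 (range -0.30 to 0.19), where 50.1% of all genes were. For stress in male controls 8 of 10 were below 0 (range -0.43 to 0.24, median -0.19), where 49.9% were. In male mutants under CVS 8 of 10 were above 0 relative to controls (median 0.18), where 49% of all genes were, and without stress 5 of 10 were, where 49.3% were. The male interaction was above 0 for 7 of 10, where 49.5% of all genes were. Col6a2 stood at 0.30 ± 0.195 for genotype without stress in males, with 21.5, 20.6 and 24.3 CPM in mutant NS libraries, against 20.9, 18.8, 16.3, 17.2 and 16.5 CPM in control NS libraries. All 3 male mutants were above the control mean, and the groups overlapped. The summed level of the 7 olfactory bulb genes was uneven in males. It was 18.2 to 44.3 CPM (median 42.3) in mutant NS and 15.6 to 21.9 CPM in control NS libraries. In mutant CVS libraries it was 19.4 to 21.5 CPM, and in control CVS libraries 15.8 to 33.4 CPM (median 18.9). The libraries with high Cdhr1, an olfactory bulb gene, were left out together in another fit, which left no spread within the mutant NS group. Over all alternatives, that fit among them, the log2 fold change of Col6a2 for genotype without stress in males was 0.26 to 0.31. No further test was made of the part of the uneven olfactory bulb level in the male values.

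Mrc1 had its smallest p for stress in male controls, with 4.36 to 7.75 CPM (median 5.61) in control CVS libraries, against 7.73, 7.40, 5.67, 5.71 and 9.11 CPM in control NS libraries. The log2 fold change was -0.28 ± 0.254 with an edgeR adjusted p of 0.855, and the groups overlapped. Without control NS replicate 5 it was -0.18. Ogn stood at -0.22 ± 0.485 for stress in male mutants and at 0.24 ± 0.389 in male controls, with 95% intervals from -1.17 to 0.73 and from -0.52 to 1.00. The interval in male mutants includes both 0 and the -0.96 of Ogn in female mutants. Cd163 stood at 0.16 ± 0.376 for stress in male mutants, with an interval from -0.57 to 0.90.

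Whether the sexes differed was tested over all 38 libraries. The animal names of the sexes come from separate series, so sex and series cannot be told apart here. The difference of the CVS effect, males minus females, was above 0 for all 10 genes (median 0.22), where 51.1% of all genes were, and 0 passed by edgeR, DESeq2 or limma voom, where 0 of 17671 genes did by edgeR (0%). Cd163 alone had an unadjusted p under 0.05, as 7.18% of all genes had (0.66 ± 0.321, edgeR adjusted p = 0.685). The difference of the genotype effect was above 0 for 5 of 10, where 50.9% of all genes were. None passed by edgeR (0.00566% of all genes did), DESeq2 or limma voom, and 0 had an unadjusted p under 0.05, where 8.01% of all genes had. Averaged over sexes and genotypes, CVS against NS gave negative log2 fold changes for 9 of 10 genes (median -0.25), where 48.1% of all genes were below 0, and 0 passed by edgeR, DESeq2 or limma voom, where 0.017% of 17671 genes did by edgeR. Col1a1 was the 1 gene with an unadjusted p under 0.05, as 9.37% of all genes had (-0.31 ± 0.152, edgeR adjusted p = 0.530).

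Averaged over sexes and stress, mutants had the higher fitted level in 9 of 10 genes (median 0.12), where 49.9% of all genes were above 0, and 0 passed by edgeR, where 193 of 17671 genes did (1.09%). At an unadjusted p under 0.05 Col6a2 was the 1 gene of 10, where 11.2% of all genes were. It stood at 0.29 ± 0.080 with an edgeR adjusted p of 0.0685 and was called by DESeq2 (adjusted p = 0.0243) but not by limma voom. DESeq2 called 299 genes in all. For Col6a2, leaving out 1 library also changed the call. Its edgeR adjusted p was 0.0348 without male control CVS replicate 6, 0.0432 and 0.0477 without male mutant CVS replicates 2 and 3, and 0.0268 without female mutant NS replicate 4. Of the collagen processing genes 1 of 16 passed, Adamts2, which trims the ends of fibrillar procollagens (0.40 ± 0.064, edgeR adjusted p = 1.75e-04). Of the other meningeal fibroblast genes 1 of 28 passed, Ccn3 (0.19 ± 0.038, edgeR adjusted p = 0.00546), with 23 of 28 above 0 and a median of 0.08.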

How the data were processed

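Total RNA of medial prefrontal cortex from 1 mm sections gave 38 libraries (400 ng RNA, NEBNext Ultra II Directional kit, 150-bp paired-end reads, 20 M planned), per the labels' protocols. Reads were processed with fastp 0.23.2, STAR 2.7.10b (GRCm39) and featureCounts, according to the submitters' processing notes. The deposited values are whole-number counts per gene, not normalized by the authors, and neither the annotation release nor the strand setting is stated. Of 57010 IDs, 22462 had 0 counts throughout and 52029 received a symbol from a gene table.

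Genes were tested with edgeR 4.0.16 (R 4.3.3): robust quasi-likelihood fits, TMM normalization and filterByExpr (minimum count 10, total 15), with 17212 genes in the 4 male groups, 16435 in the 4 female groups and 17671 in all 8. P values were adjusted by Benjamini-Hochberg over all tested genes (threshold 0.05). SEs were taken as the log2 fold change over the root of F, without sign, and a 95% interval is 1.96 SE on each side. The 38 libraries are separate mice per the labels, and 0 of 74 replicate pairs were identical. Correlations used log2 CPM (prior count 2), centred on the group mean, with 100000 permutations within groups (smallest p 1e-05). Library totals set the precision of each count.

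The 10 genes and the marker lists were chosen with earlier results of these data known. Named in full were genes past the threshold, each gene's two-group comparison with its smallest p, and Ogn, Col1a1 and Cd163; up to 4 genes of a list were named by smallest p. Alternatives were DESeq2 1.42.0, limma voom 3.58.1, size factors, library totals, no low-count filter, other sets of groups and leaving out each library. In males, the libraries with high Cdhr1, an olfactory bulb gene, were also left out together. Scripts were tested on simulated data. Genotype labels were taken as given, and the targeted gene is not reported here.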

Additional observations from a re-analysis of the deposited data

Results flagged for a closer look

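Each of the 10 genes was screened in the 7 groups of 4 to 10 libraries for a single library far from its group, judged by its gap to the nearest other relative to the whole range. Of 70 such screens 5 stood out, where chance gives about 3.5 at 1 in 20. Cd163 was high in female mutant NS replicate 1, with 3.64 CPM against 2.54 to 2.78 CPM in the rest of the group. Col6a2 was high in female mutant CVS replicate 2, with 20.2 CPM against 16.3 to 17.2 CPM, in a library that was the lowest of its group in the other 9 genes. Igf2 was high in female control CVS replicate 2, with 2.55 CPM against 0.864 to 1.22 CPM, and the same library had the highest Cd163 of the females. Ogn was low in male control NS replicate 3, with 3.60 CPM against 7.60 to 9.16 CPM. Slc6a13 was low in female control NS replicate 4, with 6.48 CPM against 9.99 to 11.1 CPM, a library that was the lowest of its group in all of the genes but Cd163, of which it had the highest.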

How the results depend on the processing

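The number of the 10 genes past the threshold in each of 14 comparisons, and the number of correlated pairs in each sex, were recomputed in 481 alternative and leave-one-out runs, of which 22 gave a count more than 1.5 times away. Most of these counts are 0, so a count that did not move says little of stability. Female genotype without stress gave 0 genes in place of 1 with all 8 groups in 1 fit and with the 2 groups alone, and 0 to 1 when 1 library was left out. Stress in female mutants gave 1 gene, Cd163, in place of 0 with no low-count filter and with the 2 groups alone, and 0 to 1 when 1 library was left out. Over all genes these fits called 36 with no filter and 5 with the 2 groups alone, where the main fit called 0. Without the filter, stress in female controls and the female interaction each gave 1 gene, Col6a2. The unfiltered fit called 51 genes in all for stress in female controls and 5 for the interaction, where the main fit called 0. The averaged genotype comparison gave 1 gene, Col6a2, with DESeq2, and 0 to 1 when 1 library was left out. DESeq2 called 299 genes in all there, against 193 by edgeR. Correlated pairs numbered 34 to 42 in males and 22 to 26 in females when 1 library was left out. Of 24 named log2 fold changes, 22 had the same sign in every run. Cd163 for stress in female controls (0.04) was -0.0688 with limma voom and -0.38 to 0.21 with 1 library left out, negative without control NS replicates 3 (-0.04) and 5 (-0.05) and without control CVS replicate 2 (-0.38). Col6a2 for genotype under CVS in females (-0.04) ran from -0.10 to 0.00112, reversed without control CVS replicate 4 (0.00112). The cause was not tested. Igf2 and Cd163 had as few as 9 and 17 counts in a library, and their spread in males (50.9% and 39.2%) was above counting error (19.7% and 18.2%). No paired analysis was possible because the labels give no replicate numbers that link animals of different groups.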

Other observations

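In the IGF axis and among the astrocyte markers, 4 genes passed in the comparison of mutants with controls averaged over sexes and stress. Of the IGF axis, Igfbp5, a binding protein of insulin-like growth factors, was higher in mutants (0.12 ± 0.031, edgeR adjusted p = 0.0443), and Igfbp7, a related protein that vessels express, was lower (-0.21 ± 0.053, edgeR adjusted p = 0.0299). Of the astrocyte markers, S100b (-0.14 ± 0.027, edgeR adjusted p = 0.00166) and the glutamate transporter Slc1a2 (-0.10 ± 0.024, edgeR adjusted p = 0.0354) were lower, and 7 of 7 were below 0 with a median of -0.09.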
